A study of Mus musculus with 12 samples.

Results

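Skin of mouse embryos that lack the type II keratins was set against skin of their wild type. The genes taken were those that could be read on these arrays. A probe counted as detected on an array if its detection p-value was under 0.05, and it was kept if detected on at least 3 of the 6 arrays. That p-value was taken as the chance of so bright a signal from a control bead. This kept 13898 of the 25697 probes on the array. With the brightest probe standing for each gene, they gave 10579 features, 9772 with a gene name and 807 probes without one, of 11163 features tested over the whole series. Features are called genes below.

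Total RNA of back skin at E18.5, shortly before birth, on a C57BL/6 background, was labelled and put on Illumina mouse bead arrays. The type II knockout (KO II) and its own wild type (WT II) had 3 arrays each. A type I keratin knockout (KO I) and its own wild type (WT I), from the same tissue, age and strain, had 3 arrays each and served only for the comparison of the knockouts at the end. The labels give genotype and nothing on how or in which cells the genes were deleted, nor whether each array is a separate embryo, so the p-values cover only the variation among these arrays, part of which can be technical. By sex-linked transcripts KO II held 2 male arrays and 1 female array and WT II 1 male array and 2 female arrays, so each group came from more than 1 embryo. Whole skin is a mixture, and for any marker below, fewer cells of a type and less RNA per cell cannot be told apart.

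Keratins are the intermediate filament proteins of epithelial cells. A filament needs a type I and a type II keratin in equal parts: Krt5 pairs with Krt14 in the basal layer of the epidermis and Krt1 with Krt10 in the layers above it. As epidermal cells rise to the surface they build the cornified envelope, a shell of cross-linked proteins such as loricrin, filaggrins, and the small proline-rich (Sprr) and late cornified envelope (Lce) proteins, sealed by lipids. Keratinocytes under stress send out alarmins, among them Il33 and the cytokine Tslp, which the series title names together with Nrf2, mitochondrial activity and barrier composition.

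Signals are given as normalized log2 values, where 1 unit is 2-fold, and changes as KO II minus WT II on that scale, ± the standard error, with 3 arrays per group. A gene is said to have risen or fallen where limma's moderated test, adjusted over all 11163 features by the method of Benjamini and Hochberg, gave a p under 0.05. By this rule 4118 of the 10579 genes changed, 38.9% (over all features, 37.5%): 1712 rose (16.2%) and 2406 fell (22.7%). Each list count below is to be read against these shares of 16.2% risen and 22.7% fallen. At least 2-fold rises numbered 726 and falls 617, and at least 8-fold rises 71 and falls 28. In 5356 genes (50.6%) the KO II arrays all lay above or all lay below the WT II arrays. The median change over all genes was -0.08, and with arrays scaled to a common median instead of quantile normalized it was -0.19, with 1205 rises and 2816 falls, so that rises were 30.0% of calls in place of 41.6%. Small falls in what follows depend on this choice of scale.

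The 2 groups were far apart. Pairs of arrays correlated at 0.959 to 0.973 within KO II, at 0.985 to 0.988 within WT II and at 0.892 to 0.921 between the groups. KO II arrays varied more than WT II arrays, with a median SD per gene of 0.240 against 0.124 in WT II, and the second principal component (12.9% of the variance, after 71.2% for the first) set KO II array 2 at 32.9 and KO II array 3 at -25.3 apart from each other. Between 13280 and 13603 probes were detected on KO II arrays and between 13537 and 13693 on WT II arrays. As a check of the labelled tissue, the epidermal genes Krt14, Krt10, Lor, Trp63 and Cdh1 were detected on all 6 arrays. Of the same set, Dsg3 was detected on all 3 KO II arrays and 1 WT II array. The deleted Krt5 and Krt1 were detected on all WT II arrays and no KO II array. The brightest signals reached 14.61, so changes of Krt14, Krt16, Krt17, Lor and Sprr2d, which lie near it in at least 1 group, may be understated.

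**Figure D1:**
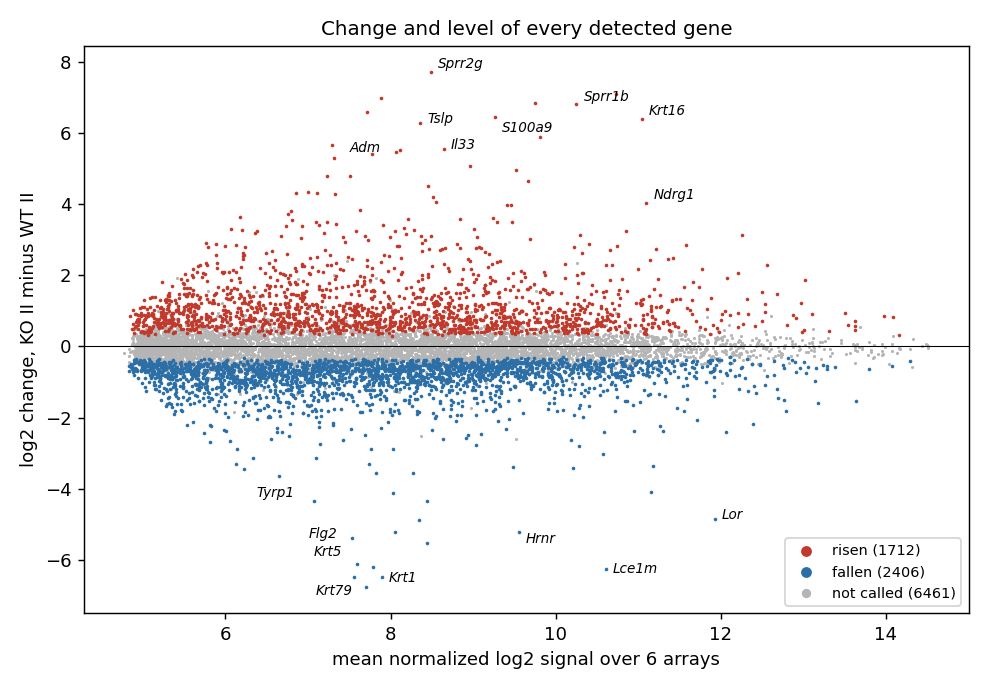
Change against level for the 10579 detected genes: the horizontal axis is the mean normalized log2 signal over the 6 arrays, the vertical axis the log2 change, KO II minus WT II, and each point is 1 gene, coloured by whether it rose (1712), fell (2406) or was not called (6461). The largest rises include Sprr2g, Sprr1b, S100a9, Krt16 and Tslp, and the largest falls Krt79, Krt1, Lce1m and Flg2.

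The deleted genes were read first, since they check the labels. The mouse type II keratins lie side by side on chromosome 15, 25 genes from Krt80 at the low end to Krt8 at the high end in the RefSeq annotation, and 22 had a probe. Of these, 10 were detected on all WT II arrays, and 6 of these 10 were detected on no KO II array. Krt5, the basal keratin, read 4.55, 4.48 and 4.60 on the KO II arrays, against 11.25, 10.61 and 10.08 on the WT II arrays. Krt1, the suprabasal keratin, read 4.61, 4.74 and 4.63 in KO II, against 11.73, 10.26 and 11.38 in WT II. Every KO II value of both genes was below detection, so the folds are bounds: Krt5 was at least 50.4-fold lower and Krt1 at least 70.4-fold lower in KO II (adjusted p = 1.54e-08 and 4.05e-06).

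Some type II keratins of the hair follicle were likewise detected on no KO II array. Krt71 and Krt73, of the inner root sheath, were at least 56.0-fold and at least 59.6-fold lower in KO II, Krt79, found in the upper follicle and sebaceous duct, at least 68.8-fold lower, and Krt86, a hair shaft keratin, at least 2.23-fold lower. The change of Krt86 was -0.79 without WT II array 2, in place of -1.44. Its call is lost without background correction (adjusted p = 0.0548), with the type II series alone (0.0744) or with array weights (0.0578). Krt78, a suprabasal keratin, fell by 2.35 ± 0.32 and was above detection on 1 KO II array and 3 WT II arrays. The gene at each end of the cluster kept a signal. Krt8, the keratin of simple epithelia, read 6.60, 7.52 and 8.15 in KO II, against 8.78, 10.43 and 8.46 in WT II, a fall of 1.80 ± 0.47 (adjusted p = 0.00978), and it was detected on all 6 arrays. Without WT II array 2 the change of Krt8 was -1.20. Krt80, at the other end, read 6.10, 6.48 and 6.28 in KO II, against 5.92, 5.75 and 6.01 in WT II (change 0.39 ± 0.14, adjusted p = 0.0469). Its neighbour Krt7 changed by -0.75 ± 0.27 (adjusted p = 0.0456). Both of these lie just inside the threshold and lose their call under most other settings, for instance without background correction (adjusted p = 0.0810 for Krt80 and 0.322 for Krt7) or without KO II array 2 (0.147 and 0.119). Krt75, of the follicle's companion layer, did not pass (-0.05 ± 0.13, adjusted p = 0.812), with 1 array detected in KO II and 2 in WT II. In all, 11 type II keratins were detected often enough to be counted, of which 9 fell and 1 rose.

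Of the 10 nearest detected genes on each side of the cluster, 5 of 20 rose and 4 fell, near the 16.2% and 22.7% over all genes. The largest of these changes were both on the low side: Slc4a8, a bicarbonate transporter, rose by 2.08 ± 0.16, and Pou6f1, a transcription factor, was at least 4.48-fold lower, with all WT II arrays and no KO II array detected. In KO I skin, Slc4a8 changed by 0.18 and Pou6f1 by 1.04, with adjusted p of 0.449 and 0.0641.

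The type I keratins did not move together. Of 13 detected, 2 rose and 8 fell, with a median change of -1.79. Krt14, the basal partner of Krt5, read 14.32, 14.47 and 14.52 in KO II, against 14.34, 14.21 and 14.14 in WT II; the change of 0.20 ± 0.11 did not pass (adjusted p = 0.173). Krt16, a keratin of wounded and stressed epidermis, read 14.21, 14.19 and 14.34 in KO II, against 8.47, 7.30 and 7.75 in WT II, a rise of 6.41 ± 0.39 (84.8-fold, adjusted p = 5.94e-07). With it rose Krt17, of the follicle and of wounded epidermis, by 0.82 ± 0.12 from a WT II signal already near the upper limit. For Krt16 and Krt17 no KO II value overlapped a WT II value.

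Krt10, the partner of Krt1, read 12.29, 14.34 and 11.98 in KO II, against 14.43, 14.52 and 14.28 in WT II. KO II array 2 lay in the WT II range and the other KO II arrays lay about 2 units lower, and the fall of 1.54 ± 0.46 (adjusted p = 0.0205) loses its call without KO II array 1 (adjusted p = 0.0781), KO II array 3 (0.0726), WT II array 1 (0.0529) or WT II array 2 (0.0588). Krt15, a keratin of quiet basal cells, fell by 2.24 ± 0.22. The keratins of the hair shaft and inner root sheath were lower: Krt35 fell by 2.61 ± 0.38, Krt26 fell by 1.98 ± 0.35, Krt33a fell by 1.86 ± 0.32 and Krt27 fell by 1.79 ± 0.58, the last varying widely between arrays (7.73, 10.27 and 9.59 in KO II, against 11.23, 11.81 and 9.91 in WT II). Krt27 loses its call without KO II array 1 (adjusted p = 0.101), WT II array 1 (0.0842) or WT II array 2 (0.116), and without KO II array 1 its change was -1.05. Krt34, of the hair shaft, and Krt12, best known from the cornea, were detected on all WT II arrays and no KO II array, and were at least 3.91-fold and at least 6.02-fold lower. Krt23 (0.31 ± 0.31) and Krt42 (0.29 ± 0.14) did not pass, though Krt42 did without KO II array 2 (adjusted p = 0.0211).

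**Figure D2:**
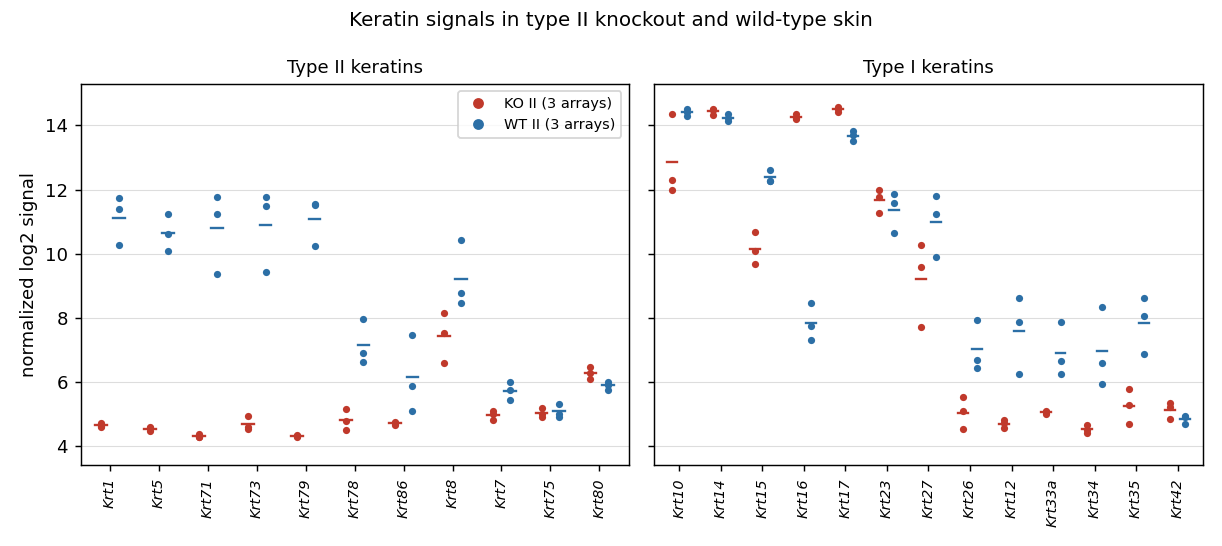
Normalized log2 signal of the detected type II keratins (left panel) and type I keratins (right panel), 1 point per array with KO II left of WT II, horizontal bars marking the mean of 3 arrays. Krt1, Krt5, Krt71, Krt73 and Krt79 sit below 5 on every KO II array, while Krt16 sits above 14 there and below 9 on every WT II array.

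Genes of the cornified envelope moved both ways, by family: of 41 detected, 18 rose and 13 fell. Of the 41, 7 were detected in KO II only. Such genes, like the Sprr2 genes named as such below, entered through KO II, so the filter fixed their direction. All 9 Sprr2 genes rose, with a median change of 5.67 that includes fitted values from a WT II signal at background. In the whole family 11 of 12 Sprr genes rose. All 3 Lce3 genes rose too (median 3.49). Of 10 Lce1 genes, 9 fell and none rose (median -3.34). Sprr2 genes and Lce1 genes are close relatives, so 1 gene's RNA can bind another's probe, and single members within these families are uncertain.

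Sprr2g read 12.17, 12.38 and 12.50 in KO II, against 4.91, 4.33 and 4.64 in WT II, where it was not detected, and was at least 167-fold higher (adjusted p = 8.17e-11). Sprr2e, Sprr2f, Sprr2k and Sprr2b likewise were detected on every KO II array and no WT II array, at least 84.6-fold, 66.0-fold, 35.6-fold and 8.15-fold higher. Sprr1b, an envelope precursor that keratinocytes raise on injury, read 13.64, 13.70 and 13.63 in KO II, against 7.37, 5.37 and 7.80 in WT II (change 6.81 ± 0.51, adjusted p = 2.8e-06). The 3 KO II arrays lay within 0.1 of each other while WT II array 2 lay about 2 units below the other WT II arrays, as it did for Sprr2d (14.34, 14.16 and 14.32 in KO II, against 7.68, 5.67 and 8.21 in WT II, change 7.09 ± 0.62). Sprr1a rose by 3.50 ± 0.24, Lce3b by 3.62 ± 0.41, cornifelin (Cnfn) by 2.53 ± 0.25, and Tgm1, the transglutaminase that cross-links the envelope, by 2.61 ± 0.23. Involucrin (Ivl), an early envelope protein, did not pass (9.23, 9.95 and 11.09 in KO II, against 10.21, 8.39 and 10.46 in WT II, adjusted p = 0.578).

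Among the 13 that fell were 9 Lce1 genes and the large envelope proteins loricrin, hornerin and filaggrin 2. Loricrin (Lor), the main protein of the finished envelope, read 9.14, 11.59 and 7.79 in KO II, against 14.40, 14.32 and 14.32 in WT II, a fall of 4.84 ± 0.65 (adjusted p = 0.000205). Hornerin (Hrnr), a filaggrin relative, read 6.45, 8.78 and 5.60 in KO II, against 12.75, 11.10 and 12.64 in WT II, a fall of 5.22 ± 0.67. Filaggrin 2 (Flg2) read 4.70, 5.36 and 4.44 in KO II, against 10.75, 8.97 and 10.98 in WT II, a fall of 5.40 ± 0.53. In all 3, KO II array 2 kept the most signal and KO II array 3 the least, without reaching the WT II range. Of the LCE genes Lce1m fell by 6.26 ± 0.41, Lce1i fell by 4.13 ± 0.47 and Lce1c fell by 4.10 ± 0.39, and in these it was KO II array 1 that kept the most signal (10.23, 8.77 and 8.32 for Lce1c in KO II, against 13.57, 12.74 and 13.29 in WT II). Casp14, the protease that takes part in breaking down filaggrin, read 10.18, 12.27 and 9.60 in KO II, against 13.16, 12.30 and 12.80 in WT II, a fall of 2.07 ± 0.50 (adjusted p = 0.00719).

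The letters TGANTCA, with any base at N, were taken as a loose form of the motif bound by AP-1 factors, pairs of Fos and Jun proteins. Promoters from RefSeq (GRCm38.p6, 250 bases before to 50 bases after the gene start) were available for 37 of the 41 envelope genes and were searched for these letters, which are their own complement, so that a match on one strand is a match on the other. They were found in 15 of the 37 envelope promoters (40.5%) and in 7.93% of all 27025 promoters in the table. Among envelope genes that rose they were found in 9 of 15 (60.0%), and among those that fell in 2 of 12 (16.7%). In the other lists searched they were found in 4 of 15 promoters of cytokines and chemokines (26.7%), 1 of 31 of glycolysis and hypoxia genes and none of 20 of EGF receptor ligands and early response factors. The Sprr2 promoters are copies of one another, so the 9 are not independent. Both genes that fell and hold the letters are shown beside 2 that rose, with the match in capitals and each read 5′ to 3′ on the gene's strand: the letters alone did not separate the directions.
Sprr1b, chr3:92438730-92439029, minus strand, rose: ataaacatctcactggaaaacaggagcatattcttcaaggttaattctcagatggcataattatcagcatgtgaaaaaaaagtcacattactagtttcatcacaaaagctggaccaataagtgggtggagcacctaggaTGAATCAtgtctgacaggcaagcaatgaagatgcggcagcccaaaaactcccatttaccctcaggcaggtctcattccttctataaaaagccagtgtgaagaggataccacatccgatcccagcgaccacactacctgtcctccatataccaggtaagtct
Sprr2d, chr3:92338890-92339189, plus strand, rose: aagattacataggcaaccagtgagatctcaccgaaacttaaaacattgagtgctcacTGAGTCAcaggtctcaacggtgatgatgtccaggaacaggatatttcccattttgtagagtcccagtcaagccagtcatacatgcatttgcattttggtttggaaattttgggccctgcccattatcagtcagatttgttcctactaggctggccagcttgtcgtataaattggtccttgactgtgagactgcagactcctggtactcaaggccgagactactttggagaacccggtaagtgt
Lor, chr3:92083093-92083392, minus strand, fell: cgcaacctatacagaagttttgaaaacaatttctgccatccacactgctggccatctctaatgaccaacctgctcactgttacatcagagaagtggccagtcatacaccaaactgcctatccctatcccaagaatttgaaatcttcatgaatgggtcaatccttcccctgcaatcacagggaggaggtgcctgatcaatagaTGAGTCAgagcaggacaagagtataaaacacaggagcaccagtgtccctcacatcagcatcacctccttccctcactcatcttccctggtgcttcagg
Flg2, chr3:93197023-93197322, plus strand, fell: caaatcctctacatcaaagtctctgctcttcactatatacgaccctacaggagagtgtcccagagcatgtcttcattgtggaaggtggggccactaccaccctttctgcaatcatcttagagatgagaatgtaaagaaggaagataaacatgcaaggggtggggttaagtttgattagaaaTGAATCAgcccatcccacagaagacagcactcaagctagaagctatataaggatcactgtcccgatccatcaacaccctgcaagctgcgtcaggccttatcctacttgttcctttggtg
The match lies 111 bases before the start in Sprr1b, 193 in Sprr2d, 48 in Lor and 69 in Flg2. N is A in Sprr1b and Flg2 and G in Sprr2d and Lor, and the counts were not split by that base. A match is a stretch of letters and not a site shown to be bound.

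**Figure D3:**
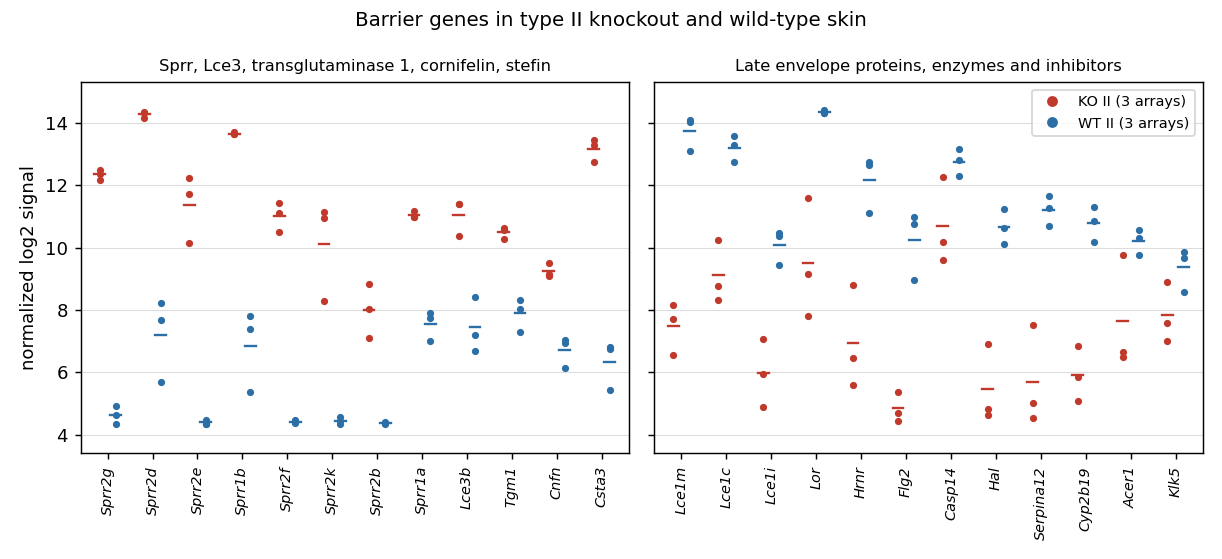
Normalized log2 signal of barrier genes, 1 point per array with KO II left of WT II and bars at the mean of 3 arrays. On the left, envelope genes and a stefin that rose lie higher on every KO II array than on any WT II array; on the right, late envelope proteins and enzymes fell, with KO II array 2 highest among the KO II arrays for Lor, Hrnr, Casp14, Hal, Serpina12 and Acer1.

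Enzymes of the stratum corneum and their inhibitors changed in the same mixed manner, with rises in the majority: of 30 proteases and inhibitors 18 rose and 4 fell (median 0.94). Csta3, a stefin that inhibits cysteine proteases, read 12.73, 13.46 and 13.29 in KO II, against 6.80, 5.44 and 6.76 in WT II (change 6.83 ± 0.32, adjusted p = 6.74e-08). Slpi, an antiprotease of mucosa and wounds, was at least 31.8-fold higher, detected on all KO II and no WT II arrays. The kallikreins, serine proteases that loosen surface cells, went several ways: Klk6 rose by 4.29 ± 0.34 and Klk10 by 3.09 ± 0.31, while Klk7 rose by 0.91 ± 0.25 and Klk5 fell by 1.54 ± 0.45. The call of Klk7 is lost without WT II array 2 (adjusted p = 0.0636) or KO II array 2 (0.0550), and that of Klk5 without any of KO II array 1 (0.0573), KO II array 3 (0.0641), WT II array 1 (0.0635) or WT II array 3 (0.0708). Wfdc21, of the same inhibitor family as Slpi, fell by 3.14 ± 0.35. Among 9 epidermal serpins 3 rose and 3 fell (33.3% each, against 16.2% and 22.7% over all genes). Serpinb2 rose by 4.50 ± 0.68 and Serpinb6c by 3.57 ± 0.36, and Serpinb1a fell by 1.02 ± 0.18. The serpin falls became 1 without KO II array 1, KO II array 3, WT II array 1 or WT II array 3. Serpina12 (vaspin), an inhibitor of kallikreins, is in neither of the lists counted here. It read 5.00, 7.53 and 4.54 in KO II, against 11.27, 10.68 and 11.66 in WT II, a fall of 5.51 ± 0.67.

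Hal, which makes urocanic acid from the histidine of filaggrin, fell by 5.20 ± 0.52 (4.83, 6.90 and 4.64 in KO II, against 11.23, 10.63 and 10.12 in WT II). Dapl1, a gene of differentiating epithelium, fell by 3.64 ± 0.23. The unstudied gene Gm94 fell by 4.34 ± 0.61. All 3 stood below every WT II array on every KO II array.

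Among 37 genes of barrier lipids 9 rose and 7 fell (median -0.20), close to the 16.2% and 22.7% of all genes. The falls included Cyp2b19, an epoxygenase of the upper epidermis (4.87 ± 0.37), Acer1, a ceramidase (2.58 ± 0.64), and Alox12e, an epidermal lipoxygenase (1.79 ± 0.23). The rises included Degs2, which makes phytoceramides (3.25 ± 0.23), the lipid transporter Abca12 (1.48 ± 0.22), and Ugcg, which makes glucosylceramide (1.29 ± 0.17). Without KO II array 2, 13 genes of the list fell in place of 7, and without WT II array 2, 11 did. Cholesterol synthesis moved more evenly, with 10 of 17 genes risen and none fallen at the threshold (median 0.70): Lss rose by 1.62 ± 0.18, Msmo1 by 1.06 ± 0.16, Sqle by 1.05 ± 0.18 and Cyp51 by 1.01 ± 0.19.

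Epidermal alarmins were among the largest rises. Tslp, the cytokine that primes type 2 immunity, read 10.79, 11.73 and 11.97 in KO II, against 5.03, 5.50 and 5.15 in WT II (change 6.27 ± 0.28, 77.2-fold, adjusted p = 5.92e-08). Il33, an alarmin stored in nuclei, read 10.99, 11.42 and 11.86 in KO II, against 5.85, 5.95 and 5.80 in WT II (change 5.55 ± 0.19, adjusted p = 4.87e-09). For both, the lowest KO II array lay more than 5 units above the highest WT II array. Of 24 cytokine and chemokine genes 14 rose and 2 fell (median 1.15), and 20 further genes of the list with a probe were detected on too few arrays to count. Neutrophil attractants rose: Cxcl1 by 4.78 ± 0.50 (10.14, 10.91 and 8.66 in KO II, against 5.21, 5.01 and 5.14 in WT II), and Cxcl5, at least 4.76-fold higher, was detected in KO II only. Ccl2, which draws monocytes, was at least 3.32-fold higher, Cxcl16 rose by 3.12 ± 0.25, and the inflammasome product Il1b by 2.05 ± 0.32. Il24, a cytokine of the interleukin-10 family, was detected in KO II only and varied there (7.25, 7.81 and 10.82, against 4.87, 4.87 and 4.97 in WT II; at least 12.6-fold higher). The 2 that fell were chemokines of resting skin, Cxcl14 by 0.82 ± 0.14 and Cxcl12 by 0.61 ± 0.17, and Cxcl12 loses its call without WT II array 2 (adjusted p = 0.0562) and was called on 1 of its 3 probes.

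Of 25 genes for S100 and antimicrobial proteins 13 rose and 3 fell (median 0.58). S100a9 and S100a8, which pair as calprotectin in neutrophils and in stressed keratinocytes, were among the largest rises: S100a9 read 12.27, 12.93 and 12.25 in KO II, against 6.13, 6.13 and 5.87 in WT II (change 6.44 ± 0.21, adjusted p = 2.91e-09), and S100a8 rose by 5.89 ± 0.27. Defb14, a beta-defensin of epithelia, rose by 5.51 ± 0.46 and Lcn2, which binds bacterial iron carriers, by 2.56 ± 0.36. Camp, the cathelicidin, fell by 2.40 ± 0.29, and S100a3, a hair cuticle protein, by 2.49 ± 0.47.

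Markers of neutrophils were read beside these genes. Of 13 with a probe, 7 were counted, of which 5 rose, 2 of them S100a8 and S100a9 themselves, and 1, Camp, fell. The other 3 were dim: Fpr2 read 5.71, 6.35 and 7.08 in KO II, against 4.90, 4.91 and 4.99 in WT II, Csf3r changed by 1.05 ± 0.30, and Retnlg, at least 2.13-fold higher, was detected in KO II only. None of these 3 holds without KO II array 3 (adjusted p = 0.0510 for Fpr2, 0.0504 for Csf3r and 0.0785 for Retnlg), which leaves 2 of the 7 risen, and without WT II array 1 Csf3r (0.0631) and Retnlg (0.0773) miss the threshold. Without S100a8 and S100a9 the summed linear signal of the remaining 5 was 123 to 309 in KO II and 202 to 330 in WT II, while with them it was 10707 to 18547 in KO II and 327 to 491 in WT II. Elane, Mmp8 and Itgb2l were detected on none of the 6 arrays. The part of neutrophils in the chemokine result was not tested.

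The EGF receptor, which drives keratinocyte growth and repair, rose modestly (Egfr, 0.81 ± 0.13), and some of its ligands rose more. Epigen (Epgn) read 10.80, 11.85 and 13.36 in KO II, against 6.78, 7.15 and 7.18 in WT II (change 4.97 ± 0.48, adjusted p = 2.14e-05). Hbegf rose by 3.08 ± 0.27, and Tgfa, detected in KO II only, was at least 1.26-fold higher. Other ligands, Btc (1.34 ± 0.47) and Egf (0.82 ± 0.24), fell. The early response factors rose with them: Atf3 by 3.19 ± 0.32, Fos by 3.12 ± 0.40, Junb by 3.03 ± 0.25, Ier3 by 2.88 ± 0.24, and Zfp36, which shortens the life of cytokine messages, by 2.71 ± 0.25. KO II array 2 was the highest KO II array for Fos (11.30, 12.91 and 11.37 in KO II, against 8.64, 8.41 and 9.17 in WT II) and for 11 of the 15 genes of this list that rose. Over all risen genes array 2 was highest in 814 of 1712. In total 15 of 23 rose and 3 fell (median 1.31), the third fall being Klf2 (0.73 ± 0.21), a factor of vessel walls. Without KO II array 2 (adjusted p = 0.148 for Btc, 0.0619 for Egf and 0.0586 for Klf2) or WT II array 3 (0.166, 0.0595 and 0.0583) none of the 3 passes, and without KO II array 1 or WT II array 2 only 1 does. Mmp13, a collagenase of wounds that AP-1 proteins can switch on, read 7.44, 8.57 and 11.02 in KO II, against 5.00, 4.64 and 4.43 in WT II (change 4.32 ± 0.74).

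Glucose uptake, glycolysis and the response to low oxygen formed the other large group of rises, with 24 of 36 genes risen and 4 fallen (median 1.05, against -0.08 over all genes). Adm, the vasodilator peptide adrenomedullin, read 10.49, 11.67 and 10.24 in KO II, against 5.50, 5.32 and 5.21 in WT II (change 5.46 ± 0.32, 43.9-fold, adjusted p = 4.74e-07). Ndrg1, a marker of low oxygen, read 13.17, 13.22 and 12.96 in KO II, against 8.94, 9.20 and 9.10 in WT II (change 4.04 ± 0.18). Slc2a1, the main glucose transporter of keratinocytes, read 13.99, 13.98 and 13.53 in KO II, against 10.40, 10.88 and 10.79 in WT II (change 3.14 ± 0.16, adjusted p = 1.76e-07). The 3 genes separated the groups by 2 units or more.

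Of the same group, the glucose transporter Slc2a3 rose by 3.16 ± 0.25, the adenylate kinase Ak4 by 2.90 ± 0.18, the phosphofructokinase Pfkp by 2.76 ± 0.18, hexokinase 2 (Hk2) by 2.07 ± 0.20 and lactate dehydrogenase A (Ldha) by 0.81 ± 0.14. So did Car9, a carbonic anhydrase used as a sign of low oxygen (2.70 ± 0.40), Egln3, an oxygen sensor that limits HIF (2.42 ± 0.22), Hif1a, the oxygen-regulated factor itself (2.49 ± 0.26), and Vegfa, the vessel growth factor (1.21 ± 0.24). The 4 falls were the muscle enzymes Eno3 (1.82 ± 0.33), Pgam2 (1.42 ± 0.24) and Pfkm (1.21 ± 0.21), and Slc2a4, the insulin-dependent glucose transporter of muscle and fat (0.59 ± 0.14). Skeletal muscle markers, a list that holds Eno3 itself, were read beside these 4. Of 33 markers 26 fell, and their summed linear signal was 54954 to 104027 in KO II and 149850 to 174530 in WT II. The part of muscle in the 4 falls was not tested.

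HIF proteins bind ACGTG or GCGTG, searched here on both strands of the same 300-base promoters. Either was found in 24 of 31 promoters of this group, changed or not (77.4%), and in 43.8% of all 27025 promoters. Among the risen genes of the group it was found in 17 of 21 (81.0%), and among the fallen ones in 2 of 3. In the other lists searched it was found in 13 of 20 promoters of EGF receptor ligands and early response factors (65.0%), in 5 of 15 of cytokines and chemokines (33.3%) and in 7 of 37 of the envelope (18.9%). The promoters of Adm and Slc2a1 are shown as those of 2 of its largest rises, with matches in capitals and CACGC being GCGTG on the other strand.
Adm, chr7:110627407-110627706, plus strand: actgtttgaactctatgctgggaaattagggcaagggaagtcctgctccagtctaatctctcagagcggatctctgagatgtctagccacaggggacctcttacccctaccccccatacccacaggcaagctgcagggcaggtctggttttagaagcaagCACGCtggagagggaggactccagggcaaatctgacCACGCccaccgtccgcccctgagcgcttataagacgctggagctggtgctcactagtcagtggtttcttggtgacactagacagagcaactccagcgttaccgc
Slc2a1, chr4:119108495-119108794, plus strand: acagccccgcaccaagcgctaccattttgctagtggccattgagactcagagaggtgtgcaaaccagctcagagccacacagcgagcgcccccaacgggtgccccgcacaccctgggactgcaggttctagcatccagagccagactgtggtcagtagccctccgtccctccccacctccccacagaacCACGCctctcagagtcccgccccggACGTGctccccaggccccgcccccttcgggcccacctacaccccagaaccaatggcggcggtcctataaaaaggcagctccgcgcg
In Adm the matches lie 90 and 54 bases before the start, and in Slc2a1 61 and 36. Such short motifs are frequent in promoters rich in C and G, and a match says nothing of binding.

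Nrf2, encoded by Nfe2l2, is the factor that turns on detoxifying and antioxidant genes when its inhibitor Keap1 lets it go. Nfe2l2 itself read 8.26, 8.31 and 7.34 in KO II, against 6.45, 6.23 and 6.17 in WT II (change 1.69 ± 0.23, adjusted p = 0.000205), while Keap1 did not pass (-0.20 ± 0.17, adjusted p = 0.391). Of 13 genes of the factor and its regulators 4 rose (30.8%, against 16.2% of all genes) and none fell. The rises included the partner Maff (1.36 ± 0.23) and the related factor Nfe2l1 (0.60 ± 0.14). Its targets did not move as a block: 13 of 50 rose and 12 fell (26.0% and 24.0%, against 16.2% and 22.7% over all genes), with a median of 0.00.

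Known targets were on both sides. Akr1b8, an aldo-keto reductase, rose by 3.51 ± 0.17, Gsta4, a glutathione transferase for lipid aldehydes, by 2.60 ± 0.32, haem oxygenase (Hmox1) by 1.65 ± 0.23, sulfiredoxin (Srxn1) by 1.57 ± 0.28, the cystine importer Slc7a11 by 1.43 ± 0.21 and the quinone reductase Nqo1 by 1.20 ± 0.22. Against them, Gsta1 fell by 2.89 ± 0.33, thioredoxin reductase 1 (Txnrd1) by 1.09 ± 0.23, and Gclc, the limiting enzyme of glutathione synthesis, by 0.44 ± 0.14. For Gsta1 the groups did not overlap (6.55, 5.63 and 6.78 in KO II, against 9.54, 8.54 and 9.54 in WT II). The fall of Gclc is small and loses its call under 8 of 17 other settings, among them leaving out KO II array 2 (adjusted p = 0.101), KO II array 3 (0.0676), WT II array 1 (0.110) or WT II array 2 (0.0852).

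Mitochondrial genes changed little. Of 71 genes of the respiratory chain and ATP synthase 3 rose and 8 fell (4.23% and 11.3%, against 16.2% and 22.7% of all genes), with a median of -0.13. The largest fall was Cox6a2, the muscle form of a cytochrome oxidase subunit (1.35 ± 0.24), which is itself in the list of muscle markers given above. The part of muscle in its fall was not tested. Ndufa5 fell by 0.51 ± 0.13 and Cox7a2 by 0.49 ± 0.13, and Atp5g2 rose by 0.57 ± 0.13. The number of falls moved with single arrays: without KO II array 2 it was 15, without WT II array 2 it was 3, and without any other array 4. The 3 rises became 1 without KO II array 2, WT II array 1 or WT II array 3. Of 23 genes of mitochondrial biogenesis and dynamics 2 fell (8.70%, against 22.7% of all genes) and none rose. The falls were Vdac3 (0.49 ± 0.13), a pore of the outer membrane, and Tfam (0.37 ± 0.13), which packs mitochondrial DNA. Tfam lies near the threshold (adjusted p = 0.0412). Vdac3 loses its call without KO II array 1 (adjusted p = 0.0550) and Tfam without any array but KO II array 3 (0.0655 to 0.147).

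Genes of the unfolded protein and integrated stress responses rose in 11 of 27 cases and fell in none (median 0.29). Ppp1r15a, which lets translation resume, rose by 1.66 ± 0.22, asparagine synthetase (Asns) by 1.22 ± 0.21 and Ddit3, a death-promoting factor of this response, by 0.97 ± 0.17, and Trib3, detected in KO II only, was at least 2.31-fold higher. Without KO II array 3 the list had 7 rises and 3 falls. Among 19 heat shock genes 3 rose and 3 fell (15.8% each, against 16.2% and 22.7% over all genes): Hspa1a rose by 2.41 ± 0.29 and Hspb1, abundant in keratinocytes, by 1.33 ± 0.19, while Hspb6, a small heat shock protein of muscle, fell by 1.08 ± 0.18, and without KO II array 2 or WT II array 2 only 1 gene fell. Of 33 proteasome genes 2 rose and none fell (6.06%, against 16.2% of all genes), led by Psmd11 (0.89 ± 0.14). Without any 1 array it was 1.

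In the lists of desmosome and of cell junction genes, every gene that changed rose. Desmosomes, to which keratin filaments attach, had 10 of 15 genes risen and none fallen (median 1.21). Dsg3, a desmoglein of the lower epidermis, read 9.02, 8.88 and 9.92 in KO II, against 5.01, 4.95 and 4.89 in WT II (change 4.32 ± 0.26, adjusted p = 6.53e-07). Dsc3 rose by 2.77 ± 0.27 and Dsg1b by 2.57 ± 0.32, both cadherins of the desmosome, and so did its inner proteins plakoglobin (Jup, 2.13 ± 0.31) and plakophilin 1 (Pkp1, 1.36 ± 0.16) and the membrane protein Perp (1.44 ± 0.19). The list of tight, adherens and gap junction genes had 21 members, of which 11 rose and none fell (median 0.45): the tight junction protein Cldn4 by 3.97 ± 0.35, connexin 26 (Gjb2) by 2.29 ± 0.22, nectin 1 (Nectin1) by 1.22 ± 0.13 and E-cadherin (Cdh1) by 1.04 ± 0.13. Without WT II array 1 the junction count was 7, and without any other array it reached at most 12. The list does not hold every claudin: of all 13 detected claudins, the family of Cldn4, 5 rose and 2 fell (median -0.02).

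The basement membrane and hemidesmosome list had 22 genes, with 5 risen and 4 fallen (22.7% and 18.2%), near the 16.2% and 22.7% over all genes. Integrin beta 4 (Itgb4), the core of the hemidesmosome, rose by 1.60 ± 0.17 and its partner Itga6 by 0.99 ± 0.26, while Dst, the gene of the plakin that ties keratins to that integrin, fell by 0.74 ± 0.15 and the matrix proteoglycan Hspg2 by 0.50 ± 0.15. The 5 rises became 2 without WT II array 1 and 3 without KO II array 1, WT II array 2 or WT II array 3, and the 4 falls became 2 without KO II array 3 and 1 without WT II array 2. The call of Hspg2 is lost without WT II array 2 (adjusted p = 0.0609) or KO II array 2 (0.0633). Among 29 genes of the actin and tubulin cytoskeleton 9 rose and 8 fell (31.0% and 27.6%, against 16.2% and 22.7% over all genes). Espn, an actin bundler, rose by 3.09 ± 0.42 (10.46, 10.11 and 9.17 in KO II, against 6.94, 6.64 and 6.87 in WT II), with 1 of its 3 probes not passing. The membrane binder Anxa8 rose by 3.08 ± 0.27 and Fblim1 by 1.40 ± 0.21, and lamin B1 (Lmnb1) fell by 1.33 ± 0.17 on its brighter probe.

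Factors that steer epidermal differentiation rose in 14 of 36 cases and fell in 6. Elf3, an epithelial factor, rose by 4.33 ± 0.37 (9.83, 9.51 and 8.14 in KO II, against 4.84, 5.11 and 4.54 in WT II), Grhl3, needed for the barrier, by 2.26 ± 0.22, Tfap2a by 1.58 ± 0.16 and Klf4 by 0.78 ± 0.17. Heyl, a Notch target, fell by 2.40 ± 0.25 and Dlx3, a factor of the upper epidermis and hair, by 2.04 ± 0.24. Trp63, the master factor of stratified epithelia, did not pass (0.33 ± 0.18, adjusted p = 0.171). In retinoid metabolism 2 of 14 genes rose and 4 fell (14.3% and 28.6%, near the 16.2% and 22.7% over all genes): Crabp2, which carries retinoic acid, rose by 2.30 ± 0.16, while Adh1 fell by 1.87 ± 0.28, Rdh9 fell by 1.73 ± 0.35 and Rbp4 fell by 1.35 ± 0.26. Without KO II array 2, 4 retinoid genes rose.

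Hair follicle genes fell broadly: 25 of 37 fell and 3 rose (median -0.74, against -0.08 over all genes). Shh, the signal from the follicle bud, read 7.76, 7.69 and 7.78 in KO II, against 9.78, 9.80 and 9.50 in WT II (fall of 1.95 ± 0.20, adjusted p = 3.05e-05). Sox21, a hair cuticle factor, fell by 1.76 ± 0.23, Edar, the receptor that sets out follicles, by 1.67 ± 0.22, and Lhx2, a stem cell factor of the follicle, by 1.66 ± 0.14. Without WT II array 2, 16 genes of this list fell, and without any other array at most 24. Of the hair shaft and root sheath genes, 15 with a probe were detected on too few arrays. Of the 6 left 1 rose and 3 fell, the fallen being Crym (2.11 ± 0.30), S100a3 and Psors1c2 (1.13 ± 0.26).

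Cell cycle genes fell in 21 of 39 cases and rose in 2 (median -0.57). Cyclin D1 (Ccnd1) read 10.70, 10.03 and 11.15 in KO II, against 11.83, 12.17 and 12.10 in WT II (fall of 1.40 ± 0.23 on its brightest probe). Uhrf1, which keeps DNA methylation through replication, fell by 0.85 ± 0.15 and the replication clamp Pcna by 0.79 ± 0.17, and 4 of 6 Mcm helicase genes fell. The 2 that rose are inhibitors of the cycle, Cdkn2b (2.17 ± 0.30) and Cdkn1a (1.34 ± 0.15), while another inhibitor, Cdkn1c, fell by 0.97 ± 0.17. KO II array 3 was the highest KO II array for 15 of the 21 that fell, and for 1209 of all 2406 genes that fell. Of 32 interferon response genes 14 rose and 1 fell (median 0.61), led by Ifitm1 (1.91 ± 0.17) and Ifitm3 (1.33 ± 0.15), with Ifitm2 at 0.59 ± 0.12, and Oasl1, detected in KO II only, was at least 1.71-fold higher. Without KO II array 2 or WT II array 3, 9 interferon genes rose, and the single fall was lost whichever array was left out.

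**Figure D4:**
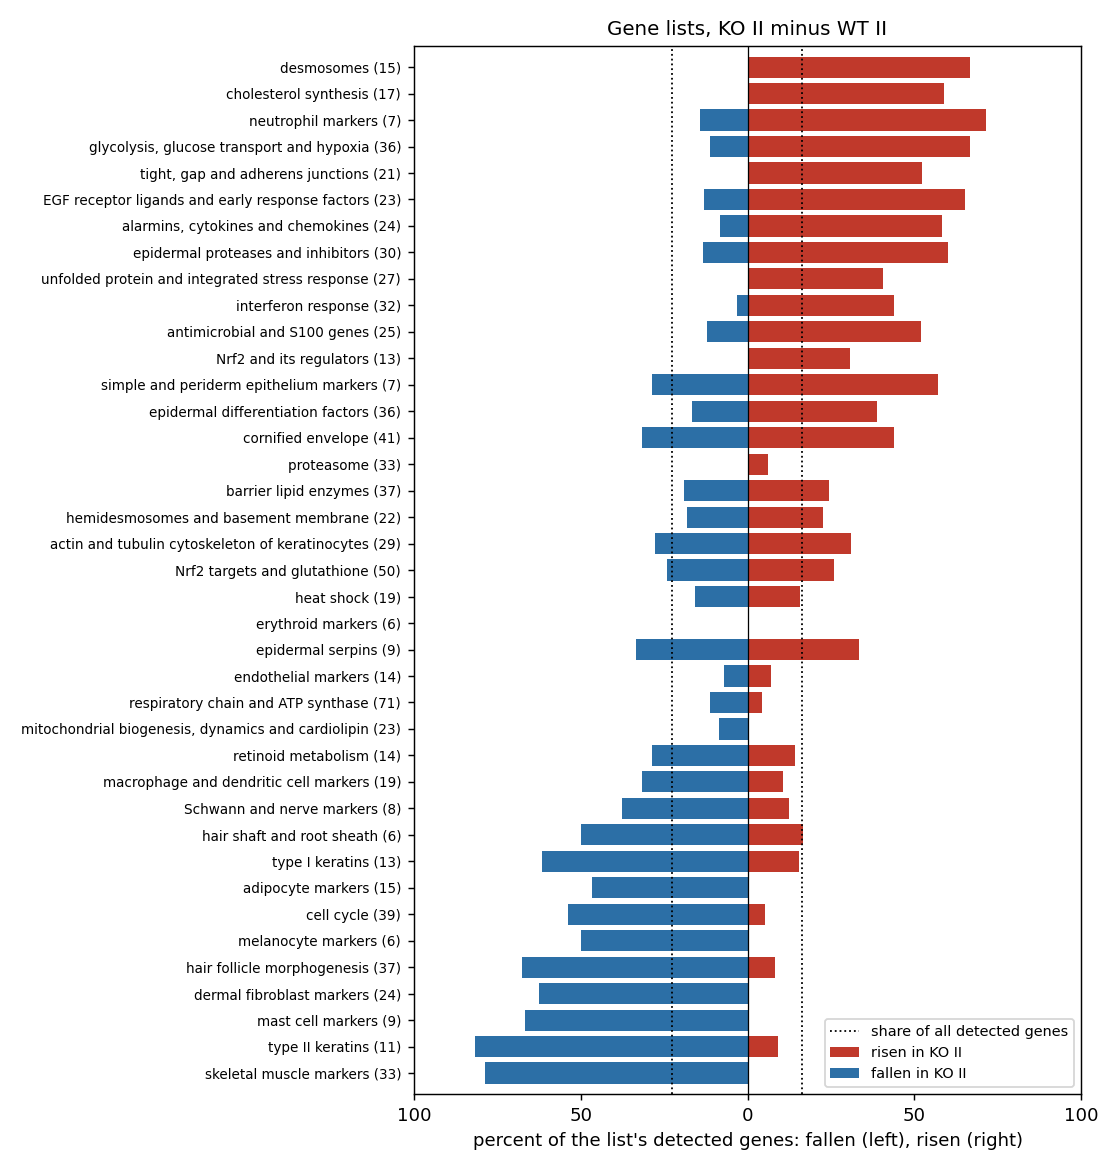
Share of each list's detected genes (number in brackets) that fell (left, blue) and rose (right, red) in KO II against WT II, for the 39 lists with at least 5 detected genes, ordered by the risen share minus the fallen share. Dotted lines mark the shares over all detected genes, 22.7% fallen and 16.2% risen; desmosomes, cholesterol synthesis, glycolysis and cytokines lie beyond the risen line, and hair follicle, cell cycle, muscle, fibroblast and mast cell genes beyond the fallen line.

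Markers of the other cells of skin were read beside the falls given above, and in 3 of these lists, fibroblasts, muscle and mast cells, most of the markers fell. Of 24 dermal fibroblast markers 15 fell and none rose (median -0.52), with a summed linear signal of 56234 to 68951 in KO II and 92850 to 97621 in WT II; Loxl1, which cross-links elastin, fell by 1.33 ± 0.13, Dpt, a matrix protein, by 1.00 ± 0.14, elastin (Eln) by 0.81 ± 0.15 and Sparc by 0.75 ± 0.11. Skeletal muscle, from the sheet under the skin, had 26 of 33 markers fallen (median -1.26): Actn3 by 2.00 ± 0.29, Tnnc2 by 1.81 ± 0.24, Tnnt3 by 1.72 ± 0.22, Tnni2 by 1.46 ± 0.22, and the calcium buffer Pvalb fell by 3.56 ± 0.57. Of the 26 that fell, 23 were highest in KO II array 3 among the KO II arrays. The part of dermis and muscle in the falls of the cell cycle and follicle lists was not tested.

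Mast cells gave the largest median fall of these lists, with 6 of 9 markers fallen, none risen and a median of -2.41. Cpa3, a mast cell carboxypeptidase, read 9.33, 10.65 and 12.58 in KO II, against 13.26, 13.22 and 13.32 in WT II, and Cma1, a chymase, read 8.14, 8.98 and 11.03 in KO II, against 11.90, 11.49 and 11.998 in WT II. KO II array 3 was the highest KO II array for all 6, and lay below every WT II array in each. Mrgprb2, a receptor of connective tissue mast cells, fell by 3.56 ± 0.49, Tpsb2, a tryptase, by 2.61 ± 0.71, Mcpt4 by 2.48 ± 0.58 and Gata2, a factor of the lineage, by 1.64 ± 0.34. Leaving out single arrays gave 6 or 7 falls. The summed linear signal was 2811 to 17159 in KO II and 20334 to 26395 in WT II, and 4 markers of mucosal or other mast cells (Mcpt1, Mcpt2, Mrgprb1 and Cma2) were detected on no array.

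Of 15 adipocyte markers 7 fell and none rose: leptin (Lep) was detected on all WT II and no KO II arrays and was at least 7.51-fold lower, Plin4 fell by 1.47 ± 0.33, Adipoq by 1.81 ± 0.49 and Car3 fell by 1.87 ± 0.59. The summed signals of the groups overlapped, 7428 to 19602 in KO II and 15606 to 22780 in WT II, and KO II array 2 was highest for all 7. Without KO II array 1 the falls numbered 2, without KO II array 3 or WT II array 2 they numbered 3, without WT II array 1 or WT II array 3 they numbered 4, and without KO II array 2 they numbered 10. Adipoq loses its call without KO II array 1 (adjusted p = 0.0536) and Car3 without KO II array 1 (0.0651), KO II array 3 (0.0935), WT II array 1 (0.0598) or WT II array 2 (0.0813).

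Pigment cell markers fell in 3 of 6 cases and varied within both groups. Tyrp1, an enzyme of melanin synthesis, read 4.62, 4.43 and 5.68 in KO II, against 9.67, 10.84 and 7.22 in WT II (fall of 4.33 ± 0.91), Dct fell by 2.77 ± 0.66 and Pmel by 1.77 ± 0.61 (adjusted p = 0.0374, called on 1 of 2 probes). Pmel loses its call without KO II array 2 (adjusted p = 0.137), WT II array 1 (0.104) or WT II array 2 (0.145), and without KO II array 2 its change was -1.01. Among 19 macrophage and dendritic cell markers 6 fell and 2 rose (31.6% and 10.5%, against 22.7% and 16.2% over all genes). Mrc1 fell by 0.88 ± 0.21, Folr2 by 0.81 ± 0.18 and C1qa by 0.63 ± 0.16, and H2-Ab1, of antigen presentation, rose by 1.63 ± 0.30. Without WT II array 1 these falls numbered 3, and without any 1 array 1 of the 2 rises was left. Among 14 endothelial markers Flt1, a receptor for Vegfa, rose by 0.97 ± 0.14 and Lyve1, of lymphatic vessels, fell by 0.56 ± 0.17, a call lost without KO II array 2 (adjusted p = 0.0574), KO II array 3 (0.0555), WT II array 1 (0.0713) or WT II array 3 (0.0742). Of 8 Schwann cell and nerve markers 3 fell and 1 rose (37.5% and 12.5%, against 22.7% and 16.2% over all genes). The falls were Ncam1 (1.33 ± 0.34, and 0.86 without KO II array 2), Pmp22 (0.72 ± 0.16) and Cnp (0.69 ± 0.22). Cnp has no call without KO II array 2 (adjusted p = 0.109) or any 1 WT II array (0.0672 to 0.0726). Mbp rose by 2.58 ± 0.12 on 1 of its 3 probes, the other 2 not passing. None of 6 erythroid markers passed, and 1 T cell marker was counted, which did not pass. Of 7 markers of simple or surface epithelium 4 rose and 2 fell, the risen being Ly6d (2.48 ± 0.27), Krt17, Cldn4 and Grhl3, which stratified epidermis also expresses, and the fallen Krt8 and Krt7, of the deleted cluster.

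Some genes were detected in 1 group only. Of the 10579 genes, 9039 were detected on all 6 arrays. On all 3 KO II arrays and no WT II array, 155 were detected. On all 3 WT II arrays and no KO II array, 150 were detected. Such genes entered through the group where they are high, so their direction was fixed by the filter, also where they are counted in the lists above. By the size of the bound, the first set was led by Sprr2g, Sprr2e, Sprr2f, Sprr2k, Slpi, Il24, Sprr2b and Cdhr1 (at least 7.93-fold higher), a cadherin best known from photoreceptors. Outside the type II keratins the second set was led by Tm4sf5 (at least 7.81-fold lower), Lep, a probe without a gene name (ILMN_2682168, at least 6.89-fold lower), Krt12, Cfap57 (at least 5.23-fold lower), Pou6f1, Krt34 and Dkkl1 (at least 3.88-fold lower).

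The type I knockout was set beside KO II to see which changes differed between them. Its own changes, KO I minus WT I, passed for 28.5% of the same genes. Of the 1712 genes that rose in KO II, 911 also rose in KO I, which is 53.2% of those in KO II and 69.9% of the 1303 in KO I, and 11 fell there. Of the 2406 that fell in KO II, 1132 also fell in KO I, 47.0% of those in KO II and 66.0% of the 1714 in KO I, and 29 rose there. The change in KO II minus the change in KO I was then tested for each gene in the same model, and 326 genes passed (3.08%, beside 3.06% of all 11163 features tested), 136 with the higher change in KO II (1.29%) and 190 with the lower (1.8%). For most genes the 2 knockouts were therefore not told apart, which at 3 arrays per group does not show that they respond alike. The count depends on single arrays: without KO II array 3 it was 651, and without KO I array 1 or 2, WT I array 2 or 3, or WT II array 1 or 3, it was 159 to 213. Of the 75 such genes named here or in the closing section, 53 pass without any 1 of the 12 arrays and none changes sign.

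The keratins came first: Krt14, which did not pass in KO II, was detected on no KO I array and at least 583-fold lower there, a bound read from a WT I signal near the upper limit. Krt5, lost in KO II, rose by 0.94 ± 0.23 in KO I. Krt16 rose by 6.41 in KO II and was detected on no KO I array, at least 13.8-fold lower. Outside the keratins, envelope genes and proteases were among those with the lower change in KO II. Lor changed by -4.84 in KO II and by -0.21 in KO I, a difference of -4.63 ± 0.92 (adjusted p = 0.0201), and Hrnr by -5.22 in KO II and -0.35 in KO I, a difference of -4.87 ± 0.94 (adjusted p = 0.0171). Both lie near the threshold, and without WT II array 1 neither passes (adjusted p = 0.0559 for Lor and 0.0540 for Hrnr). The median change of the 10 Lce1 genes was -3.34 in KO II and -0.19 in KO I, and for 6 of them the difference passed, all lower in KO II. Of the 41 envelope genes 12 differed, each with the lower change in KO II, and of 30 proteases and inhibitors 9 did, each likewise. Klk6 rose by 4.29 in KO II (19.6-fold) and was at least 230-fold higher in KO I, with no WT I array detected, Klk5 fell by 1.54 in KO II and rose by 1.90 ± 0.45 in KO I, and Casp14 fell by 2.07 in KO II and changed by 1.10 in KO I (difference -3.17 ± 0.71). The difference for Casp14 fails without WT II array 1 (adjusted p = 0.0954) and 8 others of the 12 arrays, left out 1 at a time.

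Some genes moved in KO I and less or not at all in KO II. Serpinb11, an epidermal serpin, changed by 0.65 in KO II and 5.47 in KO I (difference -4.81 ± 0.50), and Serpina9 by 0.09 in KO II and 2.91 in KO I. The transporter Slc26a9 did not pass in KO II (adjusted p = 0.0818) and was at least 4.68-fold higher in KO I, and Slc5a8 rose by 0.76 in KO II (1.70-fold) and was at least 5.10-fold higher in KO I. Other genes with the lower change in KO II fell there. Sp6, a factor of follicle and tooth, fell by 1.33 in KO II and rose by 0.65 in KO I. Aldh3b3, an aldehyde dehydrogenase, was at least 2.34-fold lower in KO II and rose by 1.35 in KO I. Fcho1, of endocytosis, fell by 2.31 in KO II, and its change of 0.40 in KO I did not pass (adjusted p = 0.209).

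Genes with the higher change in KO II came from several lists. Of the 36 glycolysis and hypoxia genes 8 had the higher change in KO II and 1 the lower, and their median change was 1.05 in KO II and 0.26 in KO I. Slc2a3 changed by 3.16 in KO II and -0.02 in KO I (difference 3.18 ± 0.35, adjusted p = 0.000624), Adm by 5.46 in KO II and 2.24 in KO I (difference 3.22 ± 0.45), and Ndrg1 by 4.04 in KO II and 2.03 in KO I (difference 2.01 ± 0.26). Atf3 changed by 3.19 in KO II and -0.01 in KO I, Tnfaip3, a brake on NF-kB, by 2.44 in KO II and 0.28 in KO I, the lipoprotein receptor Vldlr by 2.33 in KO II and -0.12 in KO I, Espn by 3.09 in KO II and -0.43 in KO I, and the lectin Clec2e by 3.38 in KO II and 1.25 in KO I. For Espn 1 of 3 probes, and for Clec2e 1 of 2, did not pass for KO II minus WT II. A probe without a gene name (ILMN_2610594) changed by 5.41 in KO II and was at least 1.43-fold higher in KO I. Also among the highest differences were Plekha2 (1.85 in KO II and -0.03 in KO I) and Slc4a8 (2.08 in KO II and 0.18 in KO I). The alarmins did not separate the knockouts at the threshold: Tslp changed by 6.27 in KO II and 5.80 in KO I, and Il33 by 5.55 in KO II and 6.30 in KO I. Mast cell markers had a median change of -2.41 in KO II and -0.26 in KO I, with 1 of 9, Mrgprb2, passing the test of the difference. It fails it without any of 7 of the 12 arrays, left out 1 at a time, with the highest adjusted p (0.0727) without KO I array 1.

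**Figure D5:**
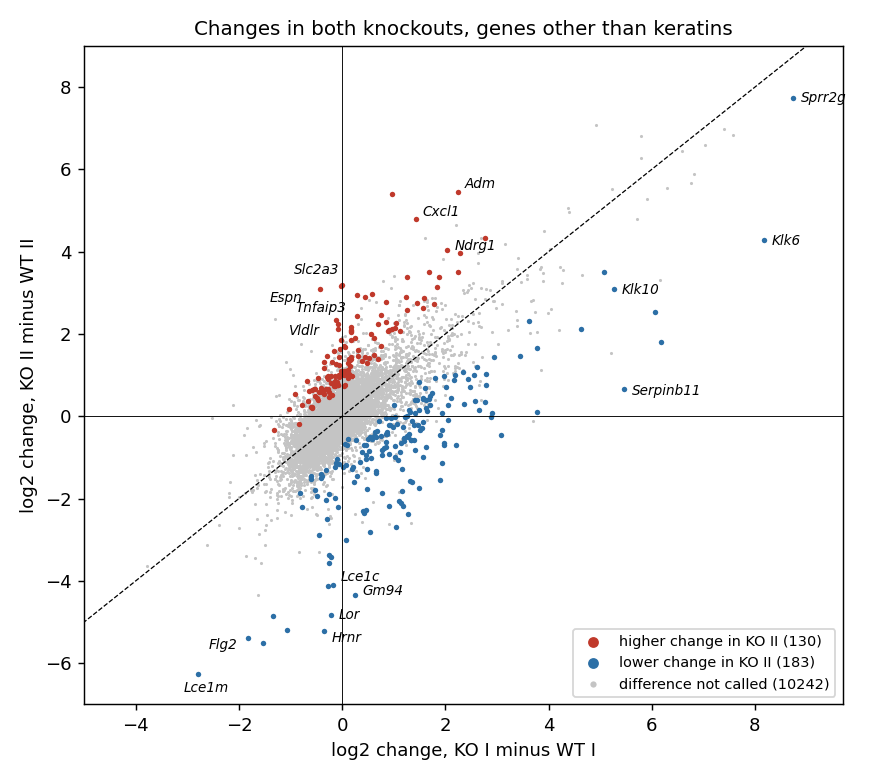
Log2 change in KO II (vertical axis, KO II minus WT II) against that in KO I (horizontal axis, KO I minus WT I) for the detected genes other than keratins, 1 point per gene. Red points (130) have the higher and blue points (183) the lower change in KO II at an adjusted p under 0.05, grey points (10242) did not pass, and the dashed line marks equal changes, with fitted changes drawn also where a group is below detection; Adm, Slc2a3 and Espn lie above it and Lor, Hrnr, Lce1m and Klk6 below it.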

How the data were processed

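Per the file headers, the deposited table holds each probe's non-normalized bead intensity and a detection p-value per array. The sources used here do not give any background step before deposit or how detection was computed. A second deposited table of processed intensities served as an alternative; its values are linear, go below 0 and have nearly the same quantiles on every array, where a log scale had been assumed in planning. RNA was labelled as biotin cRNA, per the labels' protocols. Signals were background-corrected by normexp (offset 16), with the control signal estimated from signals and detection p-values, then quantile normalized and turned into log2 (limma 3.58.1, R 4.3.3; Python 3.11.15, pandas 2.3.3, numpy 2.4.6, matplotlib 3.10.9). The log2 values are thus computed here from the deposited intensities.

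A probe entered if detected on at least 3 of 12 arrays, and the entered probe with the highest mean stood for its gene. Tested probe by probe, some named genes had a probe that did not pass for KO II minus WT II. These included Espn and Pfkm (1 of 3 probes), H2-Ab1 (1 of 4), and Clec2e, Ncam1, Ndufa5 and Cnp (1 of 2 each). Of 25697 probes, 23978 have 1 symbol in GEO's annotation of the platform and 1719 none. All 12 arrays, 3 per group, entered 1 limma model that estimates each group's mean and has 8 residual degrees of freedom; p-values were adjusted by Benjamini-Hochberg over all 11163 features, and every adjusted p in the text comes from this model or a named alternative to it. The model was also run on data simulated from the group means and spreads of these arrays. The number of arrays limits precision, with a median standard error of 0.17. Where no array of a group detected a gene, its fold is a bound: the brighter group's mean is set against the dim group's, in which any value under that array's dimmest detected probe is raised to that probe's. Offset and normalization shrink the changes of dim genes.

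The genes, the lists and the tests were chosen with earlier results of these data known. The text names every measured keratin, the 12 largest rises and falls outside type II keratins whose groups do not overlap, at most 4 changed members a list, by smallest p, Nfe2l2, Keap1, Tslp, Il33, the 8 differences between knockouts with the smallest p each way, and up to 8 genes detected in 1 group only each way. Others were chosen after their values were seen: Abca12, Acer1, Atf3, Btc, Car9, Casp14, Ccl2, Cdkn1c, Cnfn, Cpa3, Csf3r, Cxcl12, Cxcl14, Cxcl5, Dlx3, Egf, Egfr, Egln3, Eno3, Epgn, Fos, Gclc, Hif1a, Hk2, Hmox1, Il1b, Ivl, Jup, Klf2, Klf4, Klk5, Klk7, Lce3b, Lcn2, Ldha, Mmp13, Nqo1, Pcna, Perp, Pfkm, Pfkp, Pgam2, Pvalb, Retnlg, Slc2a4, Slc7a11, Sprr1a, Srxn1, Tgfa, Tgm1, Tpsb2, Trp63, Txnrd1, Vegfa and Wfdc21. A list's summed signal adds the linear signals of its detected members, less the offset. Alternatives were other normalizations and filters, array weights, a covariate for sex, a replicate block and leaving out each array.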

Additional observations from a re-analysis of the deposited data

Results flagged for a closer look

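The results listed here are genes whose change in KO II differed from their change in KO I by the test of the difference itself (limma, adjusted p under 0.05). Values are the log2 change KO II minus WT II, less the log2 change KO I minus WT I, so that a negative value means a lower change in KO II. Among the genes named in the text 75 were of this kind, 27 with the higher and 35 with the lower change in KO II outside the keratins, and 13 keratins. For 22 of them, 10 keratins and 12 others, at least 1 of the 4 groups had no array above detection, so their values are fitted differences from a signal at background, and neither their size nor their order can be read: Aldh3b3, Ccl2, Cxcl5, Dsg3, ILMN_2610594, Klk6, Nqo1, Pou6f1, Slc26a9, Slc5a8, Sprr2g and Trib3, and the keratins named below as not detected.

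Higher in KO II were a probe without a gene name (ILMN_2610594, 4.45), Espn (3.53), Cxcl1 (3.36), Adm (3.22), Atf3 (3.20), Slc2a3 (3.18), Cxcl5 (2.46), Vldlr (2.45), Tnfaip3 (2.16), Clec2e (2.14), Ccl2 (2.01) and Ndrg1 (2.01). Smaller differences of the same direction were found for Slc4a8 (1.90), Plekha2 (1.88), Ak4 (1.67), Dsg3 (1.56), Mbp (1.32), Pfkp (1.32), Slc2a1 (1.31), Itgb4 (1.29), Ifitm1 (1.28), Akr1b8 (1.26), Flt1 (1.24), Ddit3 (1.19), Hk2 (1.17), Trib3 (1.16) and Cdkn1a (0.95). 

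Lower in KO II were the envelope genes Hrnr (-4.87), Lor (-4.63), Lce1c (-3.92), Lce1i (-3.85), Flg2 (-3.57), Lce1m (-3.47), Sprr1a (-1.58) and Sprr2g (-1.02). Proteases and serpins with a lower change were Serpinb11 (-4.81), Serpina12 (-3.99), Klk6 (-3.88), Klk5 (-3.44), Casp14 (-3.17), Serpina9 (-2.82), Klk10 (-2.18) and Klk7 (-1.52). Metabolic genes and transporters were Hal (-4.12), Cyp2b19 (-3.52), Rdh9 (-3.22), Aldh3b3 (-2.96), Gsta1 (-2.44), Slc26a9 (-2.20), Slc5a8 (-2.03), Slc7a11 (-1.52), Nqo1 (-1.42), Crabp2 (-1.33), Msmo1 (-1.28) and Cyp51 (-1.18). The remaining ones were Gm94 (-4.60), Pou6f1 (-3.72), Mrgprb2 (-3.30), Psors1c2 (-3.06), Fcho1 (-2.71), Sp6 (-1.98) and Dlx3 (-1.72).

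Type I keratins had the higher change in KO II. Krt10 (8.28) was detected on at least 1 array of each group, and the others, Krt14 (9.97), Krt15 (4.62), Krt16 (10.74), Krt17 (9.57) and Krt23 (6.65), were not detected in KO I. Type II keratins had the lower change in KO II. Krt7 (-2.43) and Krt78 (-2.36) were detected on at least 1 array of each group, and the others, Krt1 (-5.89), Krt5 (-7.04), Krt71 (-6.02), Krt73 (-5.19) and Krt79 (-6.25), were not detected in KO II.

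Of the 75, 22 miss the threshold when at least 1 of the 12 arrays is left out. Serpina12, Cyp51, Hk2, Dsg3, Cdkn1a, Cxcl1, Casp14, Sprr2g, Cxcl5, Klk7, Nqo1, Flg2, Mrgprb2 and Sprr1a do so for 7 to 10 of the arrays, with the highest adjusted p between 0.0618 (Cxcl1 without WT II array 1) and 0.130 (Hk2 without KO I array 2). Lor does so for 3 arrays, Hrnr, Klk10 and Ddit3 for 2, and Dlx3, Itgb4, Pfkp and Slc7a11 for 1.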

How the results depend on the processing

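The counts of genes that rose and fell in KO II stayed within 1.5 times of 1712 and 2406 under every alternative run: 1205 to 1834 rises (2397 of 13898 with each probe tested separately) and 1755 to 2891 falls, the lowest share of rises coming from median scaling. The difference between the knockouts was less stable. It counted 326 genes, and 792 with array weights (397 higher and 395 lower in KO II), 73 higher with median scaling, and, with 1 array left out, 159 to 651 in all, 66 to 330 higher and 91 to 321 lower. Array weights were lowest for KO II array 2 (0.314), WT I array 3 (0.363) and KO II array 3 (0.411). With sex as a covariate it counted 328. Of 245 named genes 213 stayed on their side of the threshold under all 17 alternatives, and 142 of 4164 values lost the call. Of 1360 counts of risen or fallen list members, 149 moved by over 1.5 times. Reversed values were those of genes that did not pass: Ivl at -0.25 without WT II array 2 and -0.098 without KO II array 3, Krt23 at -0.052 without WT II array 2, Krt75 at 0.024 with array weights, 0.070 without WT II array 2 and 0.012 without KO II array 3, and Serpina9 at -0.079 without WT II array 2, -0.010 without KO II array 1 and -0.0077 without KO II array 2. With 1 array left out, Ivl ran from -0.25 to 0.83, Krt23 from -0.052 to 0.56, Krt75 from -0.13 to 0.070 and Serpina9 from -0.079 to 0.28. The cause of these shifts was not tested. The KO II and WT II arrays share leading numbers in their labels, whose meaning is not stated. Same-numbered arrays correlated in their deviations from the group means at 0.088, 0.028 and 0.142, and arrays of different numbers at -0.161 to 0.074. So few arrays cannot settle whether the numbers mark pairs, and the main model did not take them as pairs. With the replicate block 1770 genes rose and 2473 fell, and the difference counted 141 higher and 171 lower. Signals near 14.61 and below detection bound the changes that can be read, and small falls depend on the scaling.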
